A study of Mus musculus with 6 samples.

Results

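The 10 circadian clock genes Arntl, Per1, Per2, Per3, Cry1, Nr1d1, Nr1d2, Dbp, Tef and Usp2 were followed in the ileum, the stretch of small intestine before the colon, of mice with an open or a ligated bile duct. All probe sets that the platform annotation gives to 1 of these genes alone were taken, which were 18 of the 22626 probe sets that are no controls, and 10 of the 12393 genes with a probe set of their own. Of these 18, 15 lay above the filter on low signal, and each of the 10 genes kept at least 1 probe set. The filter left out the lowest 40% of probe sets by mean log2 signal, so that the dimmest probe set kept had a mean signal of 37.1. The 3 that did not pass were 1 probe set of Tef (signals from 21.3 to 35.8) and 2 of Per3 (5.8 to 22.8, and 2.4 to 9.6).

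The study asked how bile acids and their nuclear receptor FXR act on the small intestine. Expression was measured on 6 Affymetrix Mouse Genome 430A 2.0 arrays, with 2 arrays in each of 3 groups. The mice were wild-type males of mixed C57BL/6:129Sv strain, 8 to 10 months old, fed chow without restriction and kept at 12 h of light and 12 h of dark. Sham_Vehicle mice had the bile duct exposed and not tied, and were given vehicle (1% Tween80 and 1% methylcellulose) by gavage. In BDL_Vehicle mice the common bile duct was tied, which keeps bile out of the gut, and the same vehicle was given. BDL_GW4064 mice had the ligation and received GW4064, a synthetic FXR agonist, at 100 mg/kg/day. Dosing began 2 days ahead of surgery and went on for 5 days after surgery in all groups. The sources used here do not give the hour at which the ileum was collected. No label states that the 2 arrays of a group are 2 mice, so the p-values rest on a spread between samples that may be technical.

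The mammalian clock is a loop of transcription factors that runs in nearly every cell. ARNTL (also called BMAL1), paired with CLOCK or NPAS2, binds E-boxes and switches on the Per, Cry, Nr1d, Dbp and Tef genes. PER and CRY proteins then block ARNTL, and the receptors NR1D1 and NR1D2 (REV-ERB alpha and beta) repress Arntl and Cry1 by way of RORE sequences. As a result, Arntl and Cry1 on one side and Nr1d1, Nr1d2, Dbp and Tef on the other peak at different hours of the day. In the gut, the phase of the clock also follows meal times.

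The DNA letters these factors read are shown for the windows in which they were found, so that the letters can be read beside the signals of genes that moved together or apart over the arrays. RefSeq promoter windows (GRCm38.p6, from 250 bases before to 50 after a transcript start, 300 bases in all) were matched by symbol to 9 of the 10 genes, in 12 windows. Per2 had no entry. Both strands were searched for the E-box CACGTG, the D-box TTATGTAA (bound by DBP and TEF, and by the repressor NFIL3) and the RORE core TAGGTCA. No motif overlaps another in the stretches shown, which are written 5′ to 3′ on the gene's strand with the motif in capitals. In Arntl, 1 of 2 windows held the core, which begins 30 bases after the start (chr7:113207530-113207558, plus strand). Nfil3, which is no member and is shown for its likeness to Arntl described further on, held the core on the opposite strand, so that it reads TGACCTA (chr13:52981040-52981071, minus strand).
Arntl: aaggcagaaagTAGGTCAgggacggaggt
Nfil3: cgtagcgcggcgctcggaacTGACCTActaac

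E-boxes were found in Cry1 (chr10:85185089-85185134, minus strand), in Per1 (chr11:69098763-69098808, plus strand) and in both windows of Tef (chr15:81802526-81802571 and chr15:81811256-81811301, plus strand). The only D-boxes were a pair in Per3 (chr4:151044796-151044890, minus strand).
Cry1: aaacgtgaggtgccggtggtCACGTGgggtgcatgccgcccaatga
Per1: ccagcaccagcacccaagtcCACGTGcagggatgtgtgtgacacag
Tef, window 1: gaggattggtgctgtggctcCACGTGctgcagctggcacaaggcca
Tef, window 2: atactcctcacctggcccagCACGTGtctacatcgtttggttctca
Per3: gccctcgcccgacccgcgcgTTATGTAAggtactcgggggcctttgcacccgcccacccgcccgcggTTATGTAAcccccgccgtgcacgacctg

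An E-box was held by 4 of the 12 member windows, against 7.15% of all 32851 windows of this length. A D-box was held by 1 of 12, against 0.938%, and the RORE core by 1 of 12, against 2.61%. The windows of Nr1d1, Nr1d2, Dbp and Usp2 held none of these letters, which says nothing of the factors, since sites may lie outside the window or be spelled otherwise. A match is a run of letters and no measure of binding.

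The arrays of all groups had been scaled alike, with a trimmed mean of 200.1. The 10 epithelial marker genes summed to between 30640 and 34614 in each array, with the lowest single signal at 402.8, so epithelium was well represented. The treatment was visible in Fgf15, an FXR target of the ileum, which read 316.2 and 479.6 in Sham_Vehicle, 5.5 and 3.4 in BDL_Vehicle, and 972.1 and 809.6 in BDL_GW4064. A control probe set for the 5′ end of 18S rRNA split the arrays in another way, with 67.3 to 88.7 in BDL_Vehicle replicate 1 and the Sham_Vehicle pair, and 8.6 to 13.3 in the other 3. This split is called the array set here. It is no batch named by the labels, which say only that labelling reactions were run in batches. The 3′ to 5′ signal ratio of actin, a sign of RNA quality, was 1.73 in Sham_Vehicle replicate 2 and 1.09 to 1.22 in the others.

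No member passed the test in any of the 3 comparisons, which were made with limma at an adjusted p threshold of 0.05. The most visible pattern of the core clock genes lay between arrays of the same group. The brightest probe sets of these genes split the arrays of both vehicle groups. In each, 1 array was high in Arntl and Cry1 and low in Nr1d1, Nr1d2, Dbp and Tef, and the other array was the reverse. The second probe sets of Nr1d2 and Tef did not show this in Sham_Vehicle. Usp2, in contrast, was higher in both BDL_GW4064 arrays than in the 4 others, by 2.33-fold over BDL_Vehicle, with an adjusted p of 0.24. Signals are linear MAS5 signals throughout. Differences are on the log2(signal + 4) scale, and folds are taken from it, which understates changes of dim genes. Since probe sets differ in how brightly they bind, no level of one gene is set against that of another.

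**Figure D1:**
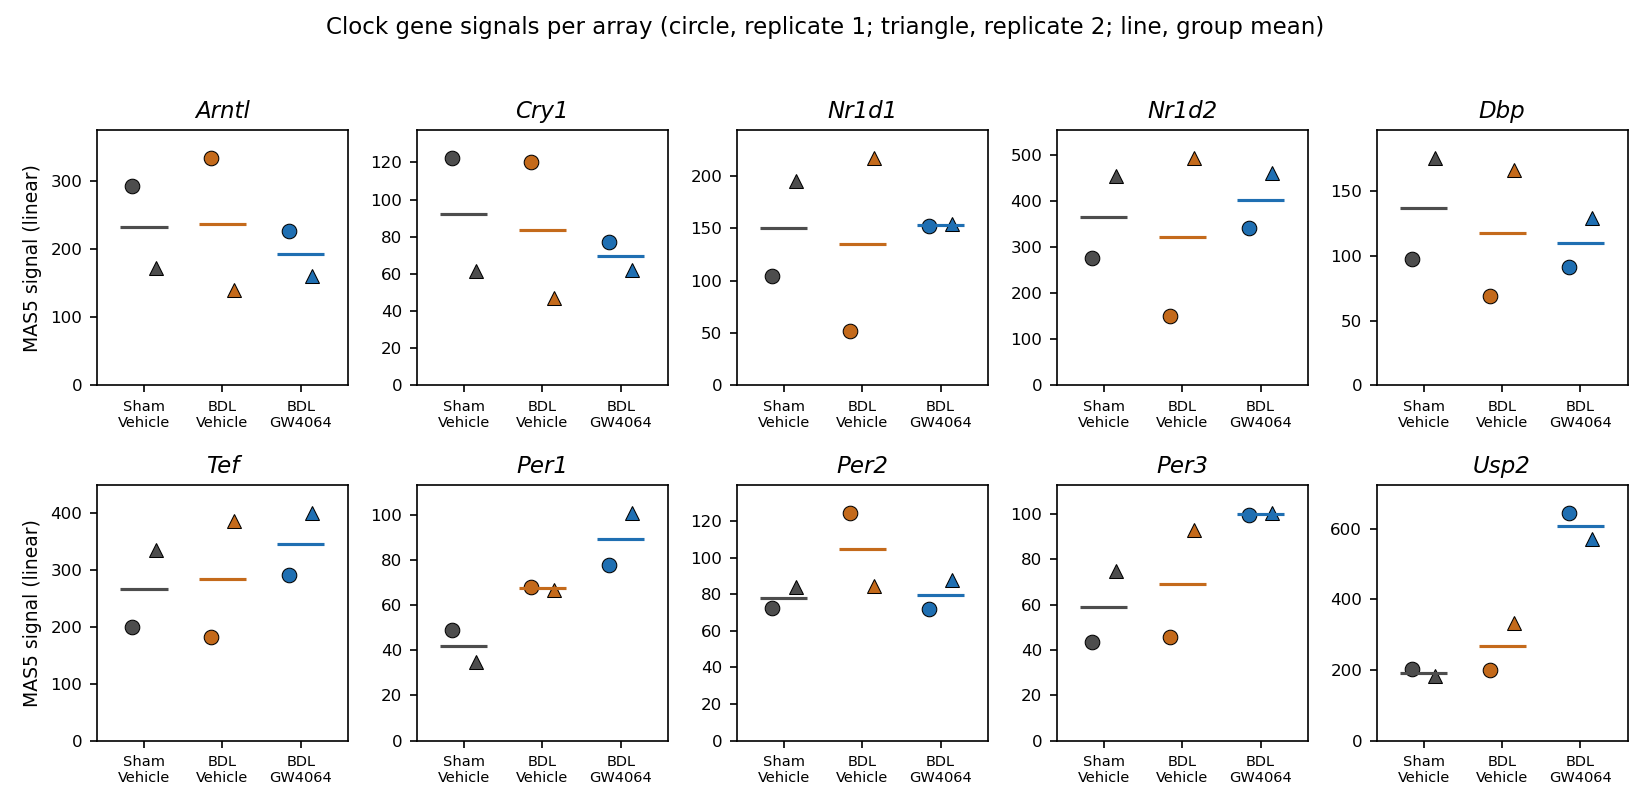
MAS5 signal (linear, from 0) of the brightest probe set of each of the 10 genes in each array. Circles are replicate 1, triangles replicate 2 and lines the mean of 2 arrays. In the vehicle groups the circles of Arntl and Cry1 lie above the triangles and those of Nr1d1, Nr1d2, Dbp and Tef below them, while both BDL_GW4064 points of Usp2 (645.1 and 569.8) lie above all others.

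Arntl, the activator at the centre of the loop, read 292.8 and 172 in Sham_Vehicle, 334.2 and 140.8 in BDL_Vehicle, and 226.7 and 160.6 in BDL_GW4064. The highest and the lowest array of the 6 were thus the BDL_Vehicle pair. The arrays of a group differed 1.69-fold, 2.34-fold and 1.4-fold, in the order Sham_Vehicle, BDL_Vehicle and BDL_GW4064. The group means were 232.4 ± 85.4, 237.5 ± 137 and 193.6 ± 46.7 (SD, n = 2 each), and the groups overlapped in every comparison. The log2 difference was -0.05 ± 0.41 (SE) for ligation, -0.18 ± 0.41 for GW4064 in ligated mice and -0.23 ± 0.41 for both together, with adjusted p-values of 0.987, 0.97 and 0.815 by limma.

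Cry1, which encodes a repressor of ARNTL, followed the same arrays. It read 122.5 and 61.5 in Sham_Vehicle, 120.3 and 46.9 in BDL_Vehicle, and 77.3 and 62.1 in BDL_GW4064. Again 1 array of each vehicle group was high and the other low, 1.93-fold and 2.44-fold apart, and the BDL_GW4064 arrays lay between them. The log2 differences of Cry1 were -0.19 ± 0.46 for ligation, -0.12 ± 0.46 for GW4064 and -0.31 ± 0.46 for both (SE), none larger than its SE.

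The receptors that repress Arntl were high where Arntl was low. Nr1d1 read 104.7 and 195.2 in Sham_Vehicle, 52.1 and 217.2 in BDL_Vehicle, and 151.7 and 154.2 in BDL_GW4064. The ligated vehicle arrays were 3.94-fold apart, a wider gap than that of 99.9% of all probe sets tested, and the BDL_GW4064 arrays 1.02-fold. The 6 arrays overlapped between all groups, and the log2 difference was -0.40 ± 0.57 for ligation and 0.49 ± 0.57 for GW4064 (SE).

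Nr1d2 had 2 probe sets. The brighter read 275.9 and 455 in Sham_Vehicle, 150.2 and 494.5 in BDL_Vehicle, and 342.5 and 462.1 in BDL_GW4064. It ordered the arrays exactly opposite to Arntl, and its BDL_Vehicle arrays were 3.23-fold apart. The dimmer probe set read 47 and 41.9, 27.6 and 131.4, and 81.3 and 146.1 in the same order. The 2 disagreed in Sham_Vehicle, where the dimmer showed little difference between arrays, and in the sign of the ligation difference (-0.37 ± 0.50 and 0.44 ± 0.61, SE). In the dimmer probe set alone, both BDL_GW4064 arrays lay above both Sham_Vehicle arrays, at a log2 difference of 1.23 ± 0.61 and an adjusted p of 0.369 by limma.

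Dbp and Tef encode related activators of the clock's output, bound to D-boxes. The brighter probe set of Dbp read 97.6 and 175.4 in Sham_Vehicle, 69 and 165.8 in BDL_Vehicle, and 91 and 129 in BDL_GW4064. The dimmer one read 19.1 and 80.4, 20 and 125.2, and 56.9 and 90.4. Both showed the same array of each group as the higher, and in the dimmer the gap reached 3.65-fold in Sham_Vehicle and 5.38-fold in BDL_Vehicle, with the low arrays below the dimmest mean kept (37.1). The groups of Dbp overlapped in all comparisons, and its log2 differences were -0.28 ± 0.43 and 0.33 ± 0.83 for ligation and 0.01 ± 0.43 and 0.45 ± 0.83 for GW4064 (SE, brighter probe set first).

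Tef read 199 and 334.6 in Sham_Vehicle, 182.8 and 386.7 in BDL_Vehicle, and 290.8 and 401 in BDL_GW4064 in its brightest probe set. The arrays that were low in Dbp were low in Tef as well, and the log2 difference was 0.04 ± 0.38 for ligation and 0.36 ± 0.38 for GW4064. The second probe set of Tef (53.9 and 31.9, 45.7 and 87.7, 86.2 and 71.8) did not share this order in Sham_Vehicle and BDL_GW4064. It was higher in both BDL_GW4064 arrays than in both Sham_Vehicle arrays, with a log2 difference of 0.86 ± 0.36 and an adjusted p of 0.301 by limma, 0.0449 unadjusted.

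**Figure D2:**
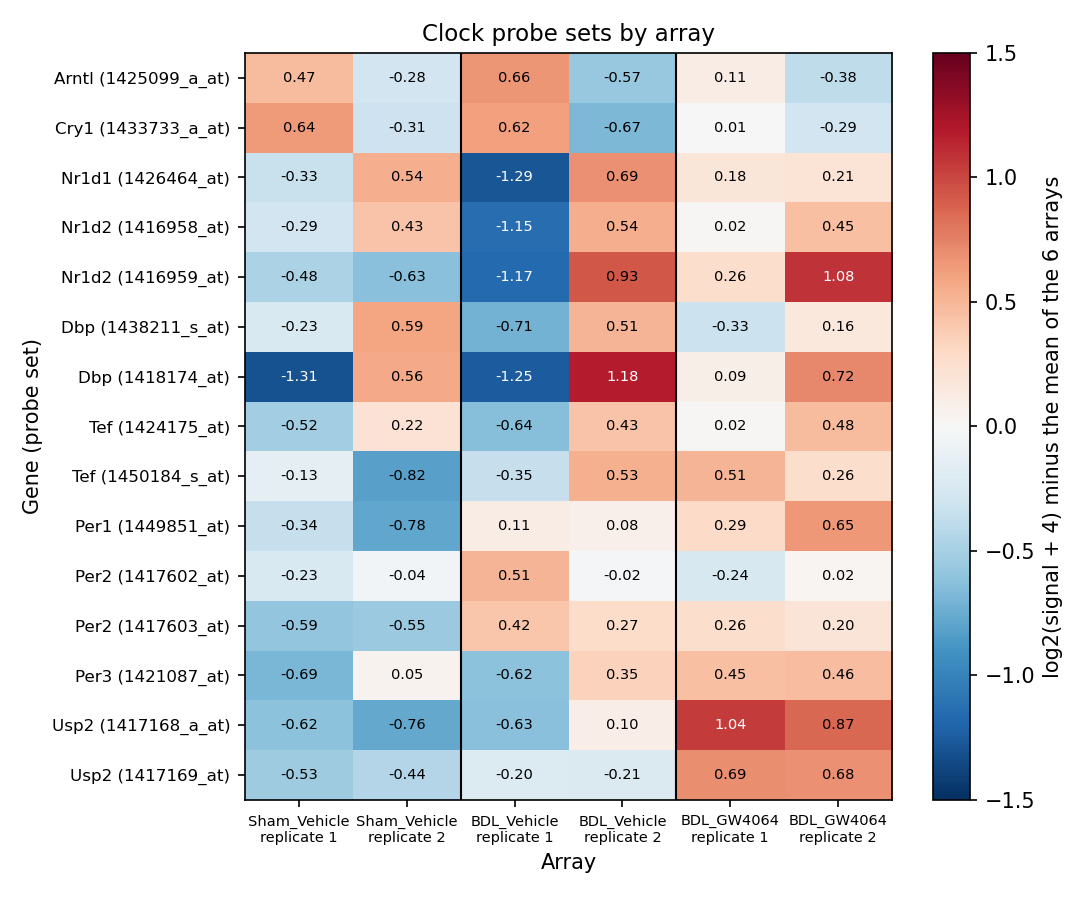
Log2(signal + 4) of the 15 clock probe sets past the filter (vertical axis) in each of the 6 arrays (horizontal axis), as the difference from the probe set's mean over the arrays, with the value in each cell. BDL_Vehicle replicates 1 and 2 stand at opposite ends for Arntl (0.66 and -0.57), Nr1d1 (-1.29 and 0.69) and the dimmer probe set of Dbp (-1.25 and 1.18).

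The gap between arrays of a group was measured against all probe sets. Among the 15 clock probe sets, 9 differed by at least 0.5 log2 between the Sham_Vehicle arrays and 12 between the BDL_Vehicle arrays, against 14.3% and 15% of all 13575 probe sets. Between the BDL_GW4064 arrays, 2 of the 15 differed by that much (the dimmer probe sets of Nr1d2 and Dbp), against 12.8%, so that there the clock genes stood near the background. The bound of 0.5 was chosen after the values were seen.

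In 6 of the 15 (Nr1d1, the brighter Nr1d2, both Dbp, the brightest Tef and Per3), replicate 2 was higher by at least 0.5 log2 in both vehicle groups, which held for 0.818% of all probe sets. In Arntl and Cry1, 2 of the 15, it was lower by that much in both, against 1.55%. Arrays of the same replicate number did not deviate together over all probe sets (correlations of 0.037, -0.119 and 0.094 between the pairs of groups). These correlations cannot show whether such arrays shared an hour or a labelling batch, which might touch few genes. The hour of collection, labelling batch and array cannot be told apart in these data. The Sham_Vehicle arrays belong to 1 array set and the BDL_Vehicle arrays to different ones. The actin ratio was 1.73 in the Sham_Vehicle array low in Arntl and 1.09 in the BDL_Vehicle array low in Arntl. Summed fat markers, treated further on, were 188 and 475 in Sham_Vehicle and 118 and 291 in BDL_Vehicle. Fibroblast and matrix markers summed to 1177 and 1883, and to 1158 and 1540. Smooth muscle and endothelial sums were also higher in replicate 2 of both groups. The glial marker Sox10 was lower there, and epithelial, macrophage and lymphocyte sums went opposite ways in the 2 groups. The part of the array set, RNA quality and tissue make-up in the gaps was not tested.

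Over the 6 arrays, the brightest probe set of Cry1 correlated with Arntl at a Pearson r of 0.98 (Spearman rho 0.89). The r was -0.98 for Tef (rho -0.94), -0.94 for Nr1d2 (rho -1), -0.9 for Nr1d1 (rho -0.94), -0.9 for Dbp (rho -0.77) and -0.82 for Per3 (rho -0.66). Usp2, Per1 and Per2 had weaker relations to Arntl, at -0.39, -0.11 and 0.32. Without Sham_Vehicle replicate 1 and BDL_Vehicle replicate 1, the arrays farthest from the median of Arntl, r over the other 4 was 0.95 for Cry1, -0.98 for Nr1d2, -0.91 for Tef, -0.82 for Dbp and -0.69 for Nr1d1. For Per3 it was 0.18, so its relation to Arntl rested on those 2 arrays. For Usp2, Per1 and Per2 it was 0.42, 0.05 and -0.89, each of the other sign than over 6 arrays. For these genes r thus depended on the arrays taken. These 9 correlations describe 6 arrays that share their scaling and come from 3 treatments, and each array set holds 3 arrays, too few for a value within it.

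**Figure D3:**
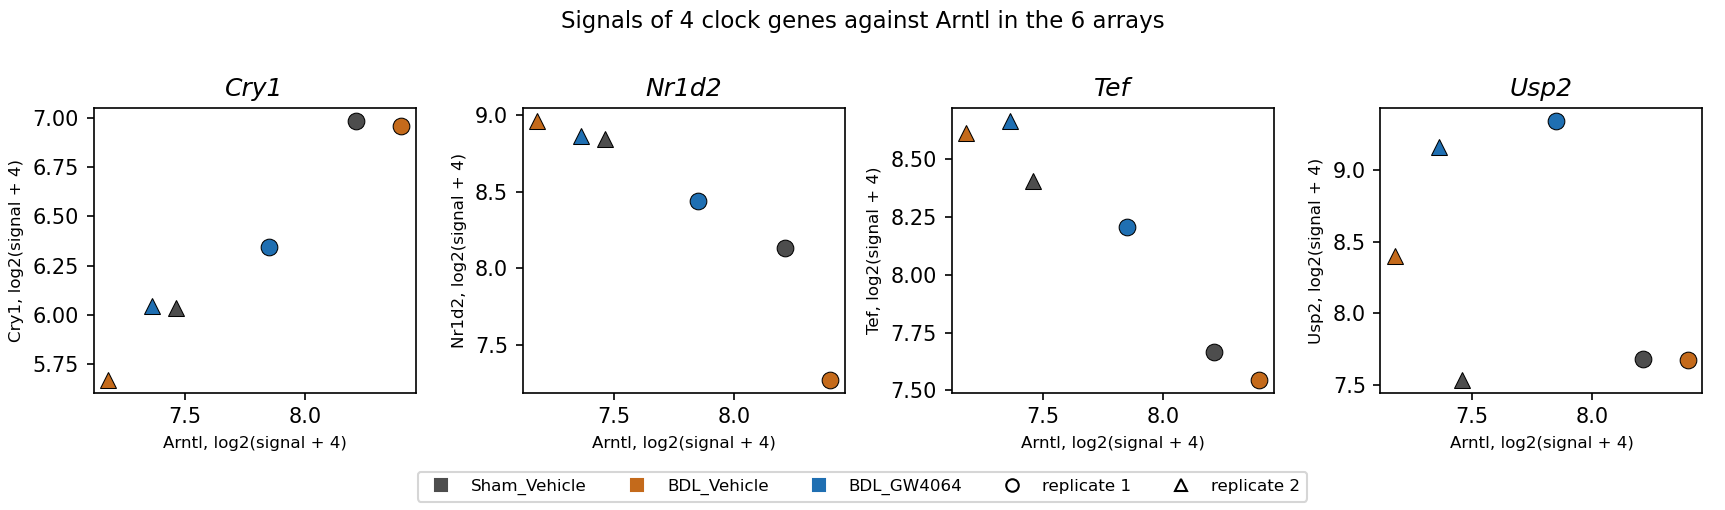
Log2(signal + 4) of Cry1, Nr1d2, Tef and Usp2 (vertical axes) against that of Arntl (horizontal axes), with 1 point per array, coloured by group (circle, replicate 1 and triangle, replicate 2). Cry1 is higher (r = 0.98) and Nr1d2 and Tef are lower (r = -0.94 and -0.98) in arrays with more Arntl, while both BDL_GW4064 points of Usp2 lie above the other 4 whatever the level of Arntl.

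Some clock genes stood at both ends when all varying genes were ranked by likeness to Arntl. Among 1936 probe sets with 1 gene and a range of at least 1 log2, the one most like Arntl over the 6 arrays was Cry1 (r = 0.98), followed by Prdx2 (0.97), Nfil3 (0.961), Mbl2 (0.949) and Ints7 (0.945). Nfil3, a D-box repressor, read 125.2 and 82.4 in Sham_Vehicle, 162.6 and 56.2 in BDL_Vehicle, and 124.6 and 62.1 in BDL_GW4064. It was thus high in the same array of each group as Arntl. Its window holds the RORE core printed beside that of Arntl, but it was the only gene outside the members to be searched. The windows of Prdx2, Mbl2 and Ints7 were not searched, and that of Cry1 held no RORE core.

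At the other end of these 1936, the lowest correlation with Arntl was that of the dimmer Dbp probe set (-0.979). Next came the brightest Tef (-0.978) and the brighter Nr1d2 (-0.938), with Nr1d1 at rank 5 and the brighter Dbp at rank 7 from the lowest. The dimmer Nr1d2 was at rank 29 and the second Tef at rank 409 (-0.308). Usp2 (ranks 321 and 485), Per1 (661) and the dimmer Per2 (741) stood nearer the middle. The 5 probe sets most like the brighter Dbp were those of the fructose transporter Slc2a5 (0.917), Slc5a4a (0.908), Vat1 (0.901), the brighter Nr1d2 (0.897) and Nr1d1 (0.887). The brightest Tef was at rank 9 (0.815), the dimmer Nr1d2 at rank 123 and the second Tef at rank 858. Slc2a5 read 226 and 578.1 in Sham_Vehicle, 203.3 and 530.7 in BDL_Vehicle, and 357.1 and 377.5 in BDL_GW4064, so the same array of each group was the higher one.

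The Per genes encode repressors that act with the CRY proteins, and their probe sets did not share a pattern. Per1, which is also induced by light and by glucocorticoids, read 48.7 and 34.8 in Sham_Vehicle, 68 and 66.7 in BDL_Vehicle, and 77.5 and 100.8 in BDL_GW4064. No group of Per1 overlapped another, and its means were 41.75 ± 9.83, 67.35 ± 0.919 and 89.15 ± 16.5 (SD, n = 2 each). The log2 difference was 0.66 ± 0.25 for ligation (adjusted p = 0.751 by limma, 0.0313 unadjusted), 0.37 ± 0.25 for GW4064 (adjusted p = 0.831, and 0.19 without BDL_GW4064 replicate 2) and 1.03 ± 0.25 for both (adjusted p = 0.176, 0.00363 unadjusted).

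The 2 probe sets of Per2 gave different pictures. The brighter read 72.6 and 83.7 in Sham_Vehicle, 124.5 and 84.5 in BDL_Vehicle, and 72.1 and 87.5 in BDL_GW4064, with 1 high array. The dimmer read 25.5 and 26.3, 55.3 and 49.7, and 49.2 and 46.9. In the dimmer one both ligated groups lay above both Sham_Vehicle arrays, which were themselves under the dimmest mean kept (37.1). Its log2 difference was 0.92 ± 0.25 for ligation (adjusted p = 0.701 by limma, 0.0064 unadjusted) and 0.80 ± 0.25 for ligation with GW4064 (adjusted p = 0.216, 0.0126 unadjusted), where the brighter probe set gave 0.38 ± 0.24 and 0.03 ± 0.24. The 0.38 of the brighter one became 0.11 without BDL_Vehicle replicate 1 and 0.65 without replicate 2.

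Per3 read 43.3 and 74.9 in Sham_Vehicle, 45.6 and 92.7 in BDL_Vehicle, and 99.7 and 100.5 in BDL_GW4064. The vehicle groups each had a low array, as in Dbp and Tef, while both BDL_GW4064 arrays lay above the other 4. The log2 difference was 0.18 ± 0.36 for ligation, 0.59 ± 0.36 for GW4064 and 0.77 ± 0.36 for both (adjusted p of 0.936, 0.815 and 0.348 by limma). The GW4064 value of Per3 became 0.11 without BDL_Vehicle replicate 1 and 1.07 without BDL_Vehicle replicate 2.

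Usp2, a deubiquitinase that acts on clock proteins and is itself under clock control, differed more between BDL_GW4064 and the other groups than within groups. For ligation, its brighter probe set differed more within BDL_Vehicle than between the groups. Its brighter probe set read 201.2 and 181.4 in Sham_Vehicle, 199.8 and 333.2 in BDL_Vehicle, and 645.1 and 569.8 in BDL_GW4064. The dimmer read 135.1 and 144, 170.6 and 169.2, and 320.7 and 318.2. In both, the BDL_GW4064 arrays lay above the other 4, and differed by 1.13-fold within the group in the brighter probe set.

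For GW4064 in ligated mice, the log2 difference of Usp2 was 1.22 ± 0.24 (2.33-fold, adjusted p = 0.24 by limma, 0.00097 unadjusted) in the brighter and 0.90 ± 0.15 (1.86-fold, adjusted p = 0.164, 0.000347 unadjusted) in the dimmer probe set. Against Sham_Vehicle, BDL_GW4064 was higher by 1.65 ± 0.24 (3.13-fold, adjusted p = 0.103 by limma, 0.000139 unadjusted) and 1.17 ± 0.15 (2.25-fold, adjusted p = 0.0791, 5.62e-05 unadjusted). The ligation difference was 0.43 ± 0.24 and 0.28 ± 0.15 (adjusted p of 0.753 and 0.751), and that of the brighter probe set became 0.79 without BDL_Vehicle replicate 1 and 0.06 without replicate 2. Over all alternatives, the 1.17 of the dimmer probe set ranged from 1.11 to 1.22. The 1.65 of the brighter probe set became 0.92 once array set was a term in the fit. That term rests on the gap between the BDL_Vehicle arrays alone. The 3 comparisons share arrays, so their values are not independent.

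Summed signals of fat and smooth muscle markers were raised in BDL_GW4064 replicate 2 alone. Those of fibroblast, macrophage and endothelial markers were raised in both BDL_GW4064 arrays. All 9 fibroblast and matrix markers were higher there than in BDL_Vehicle, against 50.4% of all genes, and 1 of them passed the adjusted threshold upward, against 0.0758%. Their summed signal was 3532 and 4443 in BDL_GW4064, 1158 and 1540 in BDL_Vehicle, and 1177 and 1883 in Sham_Vehicle. The 8 smooth muscle markers tested summed to 12770 in BDL_GW4064 replicate 2 and to between 1630 and 2168 in the other 5 arrays. The 7 macrophage markers summed to 2784 and 2512 in BDL_GW4064, 2254 and 1703 in BDL_Vehicle, and 1404 and 1633 in Sham_Vehicle. The 3 fat markers tested summed to 1042 in BDL_GW4064 replicate 2 and to 118 to 475 in the others. The 4 endothelial markers tested summed to 345 and 361 in BDL_GW4064 and to 202 to 248 in the others. No tested marker of these 5 lists was at 0 in any array (the lowest signal was 8.6, of a smooth muscle gene), and the part of all 5 lists in the Usp2 difference was not tested. The smooth muscle sum was 1980 in BDL_GW4064 replicate 1, where Usp2 read 645.1, and 12770 in replicate 2, where it read 569.8. The fibroblast, macrophage and endothelial sums of both BDL_GW4064 arrays lay above those of all other arrays, as the Usp2 signals did. The 7 B and T cell markers summed to 732 and 680 in BDL_GW4064 and to 574 to 887 in the others. Sox10, the enteric neuron and glia marker tested, read 58.1 and 39.6 in BDL_GW4064 and 49.7 to 72.3 in the others. Of the 10 epithelial markers, 1 was higher and 9 lower in BDL_GW4064 than in BDL_Vehicle, against 50.4% of all genes higher. Their median log2 difference was -0.04 and 0 passed the adjusted threshold. Their part in the Usp2 difference was not tested. In bulk tissue, fewer cells of a type and less RNA per cell cannot be told apart.

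**Figure D4:**
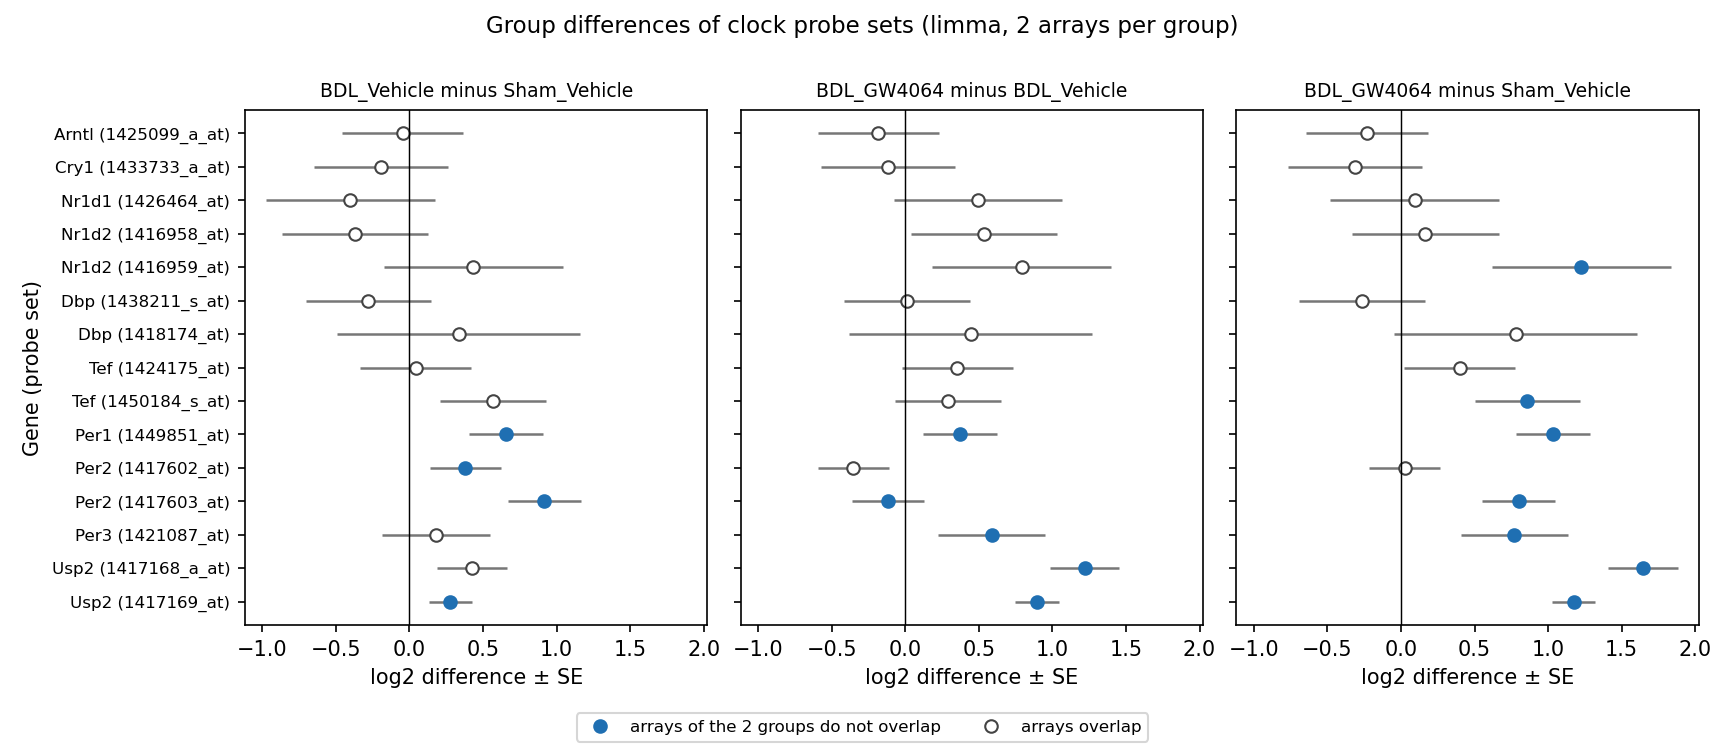
Log2 difference ± SE (limma, 2 arrays per group) of the 15 clock probe sets in the 3 comparisons, with filled points where the arrays of both groups do not overlap. The bars of Arntl, Cry1, Nr1d1 and the brighter Dbp cross 0 in every panel, and Usp2 stands farthest to the right for GW4064 (1.22 and 0.90).

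Counted over the 15 clock probe sets, 0 passed the adjusted threshold for ligation, against 0.0295% of all probe sets tested, 0 for GW4064, against 0.0516%, and 0 for both together, against 0.0368%. At an unadjusted limma p under 0.05, 2 of 15 were higher and 0 lower for ligation (dimmer Per2 and Per1), where 3.39% of all probe sets were higher and 2.98% lower. For GW4064 it was 2 higher (both of Usp2) and 0 lower, against 4.43% and 3.06%. For ligation with GW4064 it was 5 higher (both of Usp2, Per1, dimmer Per2 and dimmer Tef) and 0 lower, against 7.31% and 8.67%.

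For ligation, 4 of the 15 were higher with no overlap between arrays and 0 lower, where 18.2% of all probe sets were higher in that way and 18.7% lower. For GW4064 it was 4 higher and 1 lower (the dimmer Per2), against 17.4% and 18.1%. For both together it was 7 higher and 0 lower, against 23.8% and 26.3%. The counts for the single comparisons are thus near the background. The median log2 difference of the 15 was 0.28, 0.37 and 0.77 in these comparisons, where that of all probe sets was -0.01, -0.01 and 0. Probe sets of 1 gene are counted separately here and are not independent. With 1 value per gene, that of its brightest probe set, the median of the 10 genes was 0, 0.36 and 0.13. Over all genes it was -0.01, 0 and 0.01. In direction, 5, 7 and 7 of the 10 were higher, against 47.9%, 50.4% and 51.8% of all genes.

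Of 21 other genes of the clock, 16 were on the array and 12 past the filter, and 0 of the 12 passed the adjusted threshold in any comparison by limma. At an unadjusted p under 0.05 there were 0 for ligation, 1 higher and 1 lower for GW4064, and 1 lower for both. Over all 7919 genes these shares were 2.95% higher and 3.06% lower, 5.06% and 2.41%, and 7.15% and 7.08%. For ligation, 2 were higher and 10 lower, with a median log2 difference of -0.11. The smallest p-values belonged to Timeless (-0.32 ± 0.22), Nono (0.11 ± 0.13), Npas2 (-0.27 ± 0.33) and Rora (-0.19 ± 0.27).

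Npas2, the partner of ARNTL that can stand in for CLOCK, read 117.7 and 86.9 in Sham_Vehicle, 116.8 and 59.2 in BDL_Vehicle, and 41.2 and 37.4 in BDL_GW4064. Both BDL_GW4064 arrays were thus the lowest, with a log2 difference of -1.01 ± 0.33 for GW4064 (adjusted p = 0.486 by limma, 0.0155 unadjusted) and -1.28 ± 0.33 for both (adjusted p = 0.187). These became -0.55 for GW4064 without BDL_Vehicle replicate 1 and -0.35 for both with the array set as a term. Each of these values turns on the gap between the BDL_Vehicle arrays. For GW4064 there followed Rora, an activator at RORE sequences (0.66 ± 0.27), Clock (-0.27 ± 0.18) and the kinase gene Csnk1e (0.19 ± 0.22), with 7 of the 12 higher, 5 lower and a median of 0.06. For both together there followed Clock (-0.35 ± 0.18), Rora (0.48 ± 0.27) and Timeless (-0.22 ± 0.22), with 6 higher, 6 lower and a median of -0.02.

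Genes that cycle in many tissues, or that glucocorticoids induce, are known for daily rhythms too. Of 16 genes rhythmic in many tissues, 8 were tested and 0 passed by limma, with 2, 0 and 2 at an unadjusted p under 0.05, all higher, against 2.95%, 5.06% and 7.15% of all genes. In direction alone, 6, 5 and 6 of the 8 were higher, against 47.9%, 50.4% and 51.8%. For ligation, the smallest p-values belonged to Nampt (0.55 ± 0.23), the chaperone gene Hsph1 (0.72 ± 0.30), Tsc22d3 (0.28 ± 0.16) and the kinase gene Wee1 (0.23 ± 0.17). For GW4064 they belonged to Tns2 (0.56 ± 0.31), Wee1 (-0.25 ± 0.17), Hspa8 (0.11 ± 0.10) and Nampt (-0.17 ± 0.23). For both they belonged to Hsph1 (0.78 ± 0.30), Tsc22d3 (0.38 ± 0.16), Hspa8 (0.19 ± 0.10) and Nampt (0.38 ± 0.23).

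Of 11 glucocorticoid-induced genes, Per1 among them, 10 were tested and 0 passed by limma, with 1, 1 and 4 at an unadjusted p under 0.05, all higher, against 2.95%, 5.06% and 7.15% of all genes. Pdk4, an inhibitor of pyruvate dehydrogenase, read 41.8 and 27.3 in Sham_Vehicle, 16.1 and 24.5 in BDL_Vehicle, and 144 and 130.7 in BDL_GW4064. Its log2 difference was -0.66 ± 0.30 for ligation, 2.56 ± 0.30 for GW4064 (limma adjusted p = 0.0502) and 1.90 ± 0.30 for both (adjusted p = 0.141). Both BDL_Vehicle arrays and Sham_Vehicle replicate 2 lay below the dimmest mean kept (37.1). Beside Pdk4 and Per1, the smallest p-values were those of Sgk1 (0.35 ± 0.17), Tsc22d3 and Cdkn1a (0.17 ± 0.18) for ligation, of Klf9 (0.27 ± 0.20), Fkbp5 (0.32 ± 0.31) and Mt2 (-0.40 ± 0.47) for GW4064, and of Sgk1 (0.45 ± 0.17), Tsc22d3 and Fkbp5 (0.55 ± 0.31) for both.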

How the data were processed

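Ileal RNA (5 µg of total RNA per sample, per the labels' protocols) was hybridised to 6 single-colour arrays, in 3 groups of 2. The deposited values are intensity values on a linear scale, which the submitters' processing notes call MAS5, and their trimmed mean (2% at each end) was 200.1 in every array. MAS5 settings and detection calls are not given in the sources used here. Depth has no meaning for arrays, and 2 arrays per group limit the precision.

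Of 22690 probe sets, 64 controls were left out. Of the others, 20380 had 1 annotated gene, 691 had several and 1555 had none, and only the first were named. Signals were taken as log2(signal + 4), the pseudocount being near their 10th percentile, and the lowest 40% by mean were left out, which left 13575 probe sets (7919 genes, each by its brightest probe set where lists are counted). All 3 pairs of groups were compared with limma 3.58.1 in R 4.3.3, fitting all 6 arrays with a mean for each group, a variance prior following signal (3 residual and 4.71 prior degrees of freedom) and Benjamini-Hochberg adjustment over 13575 at 0.05. The test was tried on simulated data.

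The members and lists were chosen with earlier results of these data known. The rule for named genes was all probe sets of the 10 members, up to 4 genes of smallest p per list and comparison, and the 5 genes most like Arntl and most like Dbp. Probe sets have no genome positions here because the array table names no build. Promoter sequences came from RefSeq (GRCm38.p6). Alternatives were median centring or quantile normalisation, a pseudocount of 1 or 16, no filter or one of 60%, a prior without trend or robust, only the 4 arrays compared, a replicate block, the array set (18S signal above 30) as a term, and leaving out each array.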

Additional observations from a re-analysis of the deposited data

How the results depend on the processing

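With 2 arrays per group, and no detection calls to set signal against background, small differences could not be resolved. No clock probe set passed the threshold in any of the 651 alternative values run for the 15 probe sets in 3 comparisons. These alternatives share arrays and are not independent. Of the 45 differences, 16 kept their sign in every alternative (Per1, the dimmer Per2, and both Usp2 in all comparisons among them) and 29 reversed in at least 1. The adjusted p of Usp2 for GW4064 ranged over its alternatives from 0.112 to 0.803 in the brighter and from 0.122 to 0.803 in the dimmer probe set, and for both together from 0.0507 to 1 and from 0.0523 to 1. The causes were not tested.

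Only BDL_Vehicle holds arrays of both sets, so the array set term rests on the gap between its arrays alone. For ligation and GW4064 it gives the same difference as leaving out a BDL_Vehicle array, and is no separate adjustment. With the array set as a term, these log2 differences changed sign. For ligation they became 0.57 for Arntl, 0.45 for Cry1, -0.3 for Per3, -0.61 for the dimmer Nr1d2, -0.88 for the dimmer Dbp, -0.49 for the brightest Tef, 0.2 for Npas2 and -0.05 for Cdkn1a. For GW4064 they became 0.43 for Arntl, 0.53 for Cry1, -0.5 for Nr1d1, -0.31 and -0.26 for Nr1d2, -0.6 and -0.77 for Dbp, -0.18 and -0.15 for Tef, and 0.01 for Mt2. For both together they became 0.99 for Arntl, 0.98 for Cry1, -1.89 for Nr1d1, -1.53 and -0.87 for Nr1d2, -1.65 for the dimmer Dbp, -0.67 and -0.02 for Tef, and -0.19 for Per3. With median centring, Arntl for ligation became 0 and the brighter Dbp for GW4064 became -0.05.

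Leaving out 1 array at a time (the lone array being assumed to vary like the other groups), the ligation differences ranged from -0.66 to 0.57 for Arntl, -0.84 to 0.45 for Cry1, -1.39 to 0.59 for Nr1d1, -1.22 to 0.48 and -0.61 to 1.48 for Nr1d2, -0.89 to 0.33 and -0.88 to 1.55 for Dbp, -0.49 to 0.58 for Tef, -0.3 to 0.66 for Per3, -0.73 to 0.2 for Npas2 and -0.05 to 0.4 for Cdkn1a. The GW4064 differences ranged from -0.8 to 0.43 for Arntl, -0.76 to 0.53 for Cry1, -0.5 to 1.48 for Nr1d1, -0.31 to 1.38 and -0.26 to 1.84 for Nr1d2, -0.6 to 0.62 and -0.77 to 1.66 for Dbp, -0.18 to 0.89 and -0.15 to 0.73 for Tef, -0.01 to 0.4 for Csnk1e, -0.14 to 0.78 for Fkbp5, 0 to 0.54 for Klf9, -1.07 to 0.28 for Mt2 and -0.42 to 0.08 for Nampt. For both together they ranged from -0.61 to 0.15 for Arntl, -0.79 to 0.16 for Cry1, -0.34 to 0.53 for Nr1d1, -0.19 to 0.52 for the brighter Nr1d2, -0.67 to 0.15 and -0.15 to 1.71 for Dbp, and -0.11 to 0.16 for the brighter Per2.

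Over all probe sets, 4, 7 and 5 were called for ligation, GW4064 and both. The replicate block gave 2, 4 and 0 calls. Arrays of the same number did not deviate together over all probe sets, which does not exclude a pairing. With the numbers of BDL_GW4064 exchanged, a setting chosen after seeing the data, there were 7 calls for GW4064. The array set as a term gave 2 for GW4064 and 0 for both, no filter gave 2 for ligation and 4 for GW4064, the prior without trend gave 1, 2 and 0, the robust prior gave 12 for GW4064, and median centring gave 3 for both. Without 1 array, calls ranged from 1 to 3, from 2 to 48 and from 0 to 29, with the 48 and the 29 reached without BDL_GW4064 replicate 1. Pdk4 passed for GW4064 with median centring, a pseudocount of 16 or a robust prior (adjusted p from 0.0344 to 0.375 over its alternatives).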
